A study of Caenorhabditis elegans with 2 samples.

Results

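The regions described are calls, short intervals of sequence enrichment, that lay inside protein-coding exons of the autosomes of Caenorhabditis elegans and were found in both replicates of 1 chromatin immunoprecipitation experiment. They were chosen by position and by overlap between the deposited lists. A call of replicate 1 on chromosomes I to V was taken when it overlapped a call of replicate 2 by 1 bp or more and its summit, the position of highest signal, lay in coding sequence. The summit also had to be more than 500 bp from every protein-coding 5′ end and from every tRNA, snoRNA or snRNA gene. Of 21050 calls in replicate 1, 16524 were autosomal and 3684 met the conditions on position. Of these, 911 overlapped a call among the 14257 of replicate 2, and they fell in 803 genes.

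Chromatin came from whole young adult hermaphrodites of strain OP385, grown for 65 hours after starved L1 larvae had been synchronized by bleaching. Both replicates carried the unc-119(tm4063) III mutation and the transgene wgIs385, from which F55B11.4 was expressed with GFP and FLAG at its C terminus, and the antibody was directed against GFP. They form 1 group of 2 biological replicates, with no untagged or other strain to compare with, and 1 control library served both lists but was not analysed here. Whole animals mix all tissues, so a call cannot be tied to a cell type, and no source used here names the promoter behind the transgene. The comparisons are therefore between the replicates and between sets of calls or coding bases, with no test over samples.

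Chromatin immunoprecipitation recovers DNA that a tagged protein touches directly or through partners, and a transcription factor is usually sought at promoters and enhancers. Coding exons in this nematode are richer in G and C than the introns and intergenic DNA around them. The irreproducible discovery rate procedure takes long permissive lists, rich in background, and keeps the peaks whose ranks match between replicates. The permissive lists used here were deposited as input for it, and the short list that came out of it is called the optimal set.

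The following stretches show the DNA under 4 strong calls whose windows of 100 bp to either side of the summit lay within 1 coding exon. They are the first 4 such calls by mean rank on chromosomes II to V, to which the sequences shown were limited. Mean rank here is the mean of the ranks in the 2 lists, each taken as a percentage of its list. They are followed by col-91, the next collagen call by rank, and by lips-10, a gene at a peak of the optimal set. Each is the coding sequence of the window on the strand of its gene, from the ce11 reference, with capitals marking the 21 bases centred on the replicate 1 summit. The replicate 2 summit lay inside the stretch for immt-2 (43 bp from the replicate 1 summit) and col-91 (50 bp). It lay outside the stretch for hsp-110 (166 bp), col-105 (227 bp), npa-1 (373 bp) and lips-10 (185 bp). The coordinates are chrIII:8444624-8444824 for hsp-110 (minus strand), chrV:16790118-16790318 for immt-2 (plus strand), chrIV:1358252-1358452 for col-105 (minus strand), chrV:7078154-7078354 for npa-1 (plus strand), chrIII:8262743-8262943 for col-91 (minus strand) and chrII:8441809-8441997 for lips-10 (plus strand).
hsp-110: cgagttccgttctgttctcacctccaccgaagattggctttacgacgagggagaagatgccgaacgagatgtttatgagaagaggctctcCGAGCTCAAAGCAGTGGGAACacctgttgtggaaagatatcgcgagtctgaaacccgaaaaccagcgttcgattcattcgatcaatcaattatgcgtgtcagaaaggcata
immt-2: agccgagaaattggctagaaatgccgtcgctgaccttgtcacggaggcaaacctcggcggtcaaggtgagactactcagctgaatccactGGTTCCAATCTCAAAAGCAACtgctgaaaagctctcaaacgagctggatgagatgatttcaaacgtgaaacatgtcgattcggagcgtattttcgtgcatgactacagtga
col-105: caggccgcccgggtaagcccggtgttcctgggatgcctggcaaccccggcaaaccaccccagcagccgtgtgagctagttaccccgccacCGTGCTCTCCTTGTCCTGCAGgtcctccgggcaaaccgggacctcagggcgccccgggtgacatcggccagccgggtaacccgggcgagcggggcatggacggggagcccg
npa-1: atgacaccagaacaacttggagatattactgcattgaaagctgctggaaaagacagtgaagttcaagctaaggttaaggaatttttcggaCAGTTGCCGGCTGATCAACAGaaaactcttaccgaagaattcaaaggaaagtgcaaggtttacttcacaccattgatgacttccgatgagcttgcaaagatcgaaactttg
col-91: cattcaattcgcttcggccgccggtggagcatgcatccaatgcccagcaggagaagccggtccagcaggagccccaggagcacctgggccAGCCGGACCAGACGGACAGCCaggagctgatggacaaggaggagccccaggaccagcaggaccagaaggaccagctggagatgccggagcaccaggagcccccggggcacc
lips-10: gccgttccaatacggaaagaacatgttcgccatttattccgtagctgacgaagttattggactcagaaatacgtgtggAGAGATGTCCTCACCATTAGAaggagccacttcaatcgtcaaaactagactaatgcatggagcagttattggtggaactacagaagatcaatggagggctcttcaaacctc

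The sequences differ in composition more than in length. The col-105 stretch held 71.6% G or C and the col-91 stretch 67.2%, against 48.3% in hsp-110, 48.3% in immt-2, 44.4% in lips-10 and 40.8% in npa-1. Collagens are built of repeats that begin with glycine and are rich in proline, which are encoded by GGN and CCN. The run GGNCC occurred 6 times in the col-91 stretch and 2 times in the col-105 stretch, and 0 times in each of the other stretches.

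Overlap with the other replicate was about as common in coding exons as elsewhere. The 911 calls were 24.7% of the 3684 coding-exon calls that met the conditions on position (95% exact binomial interval 23.3 to 26.2), against 23.9% of the other autosomal calls (23.2 to 24.7). All autosomal calls of replicate 1 together gave 24.1%. These shares come from the overlap that chose the calls and are given as a description, and every interval here covers the counting of calls only. Seen from replicate 2, 898 of 2713 coding-exon calls, or 33.1%, overlapped a call of replicate 1.

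Among the strongest calls the share was lower in coding exons than in the rest of the autosomes, with intervals that overlap. Of 39 coding-exon calls in the strongest 1% of replicate 1, 16 overlapped a replicate 2 call, or 41% (25.6 to 57.9), against 61 of 100 other autosomal calls, or 61% (50.7 to 70.6). In the next class, from 1 to 5% of the list, the shares were 32.7% and 41.4%. From there downwards the shares of both sets lay close together. They were 31.3% in coding exons and 32.2% elsewhere from 5 to 10% of the list, and 21.6% and 19.6% in the weakest 25%. The other autosomal calls include those near tRNA, snoRNA and snRNA genes, which the coding-exon calls leave out by rule. Of the 191 reproducible calls near such genes, 35.6% were in the strongest 10% of replicate 1, against 14.3% of the 911. Their part in the difference among the strongest calls was not tested.

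Few of the calls reached the authors' later lists. A pooled call, from the reads of both replicates together, overlapped 116 of the 911, or 12.7% (10.6 to 15.1), against 14.6% of the other reproducible autosomal calls. For reproducible autosomal calls as a whole the share was 14.2%, and for all autosomal calls of replicate 1 it was 3.55%. Of the 2773 coding-exon calls with no replicate 2 call, 2 overlapped a pooled call, or 0.0721%. The optimal set was reached by 4 of the 911, or 0.439% (0.12 to 1.12), against 0.945% of other reproducible autosomal calls and 0.829% of all of them, and 0.2% of all autosomal calls of replicate 1. The calls near tRNA, snoRNA and snRNA genes stood apart, with 50.3% overlapping a pooled call and 9.42% an optimal peak. Calls within 500 bp of protein-coding 5′ ends had 13% and 0.474%, and those elsewhere on the autosomes 11.8% and 0.329%.

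The 4 calls at optimal peaks belonged to 3 genes. Of these, 2 lay in hsp-110, which encodes an Hsp110 chaperone that helps Hsp70 release its nucleotide, but both overlapped the same replicate 2 call and so count once there. The summit at 8444724 on chromosome III, in coding exon 5 of 6, had a signal value of 23.7 and rank 38 in replicate 1, and the shared replicate 2 call had 37.9 and rank 28. The second summit, at 8444926, had a signal value of 9.59 and rank 7171 in replicate 1. Signal values are the authors' own scores on an unstated scale, so they are read as ranks within a list. The hsp-110 call was near the top of both lists and the second call was not near the top of replicate 1.

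The remaining genes at optimal peaks were ceh-9 and lips-10. The homeobox gene ceh-9 had its summit at position 565836 of chromosome I, in the second of 3 coding exons, with a signal value of 22.3 and rank 50 in replicate 1 and 22.8 and rank 226 in replicate 2. The lipase-related gene lips-10 had its summit at 8441897 of chromosome II, with 11.2 and rank 3671 in replicate 1 and 34.4 and rank 33 in replicate 2. The lips-10 call was strong in 1 replicate only, and its replicate 2 summit, 185 bp away, lay outside coding sequence. The heat shock gene hsp-1 also had 2 coding-exon calls at an optimal peak, ranks 80 and 7599 in replicate 1 and a shared rank of 36 in replicate 2. Neither qualified, since one lay 451 bp from a 5′ end and the other 288 bp from a small RNA gene. Coding-exon calls in W03C9.1, dhc-4, pxn-1 and cutl-18 also overlapped optimal peaks without qualifying. They lay 83, 96, 76 and 195 bp from a small RNA gene, respectively.

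**Figure D1:**
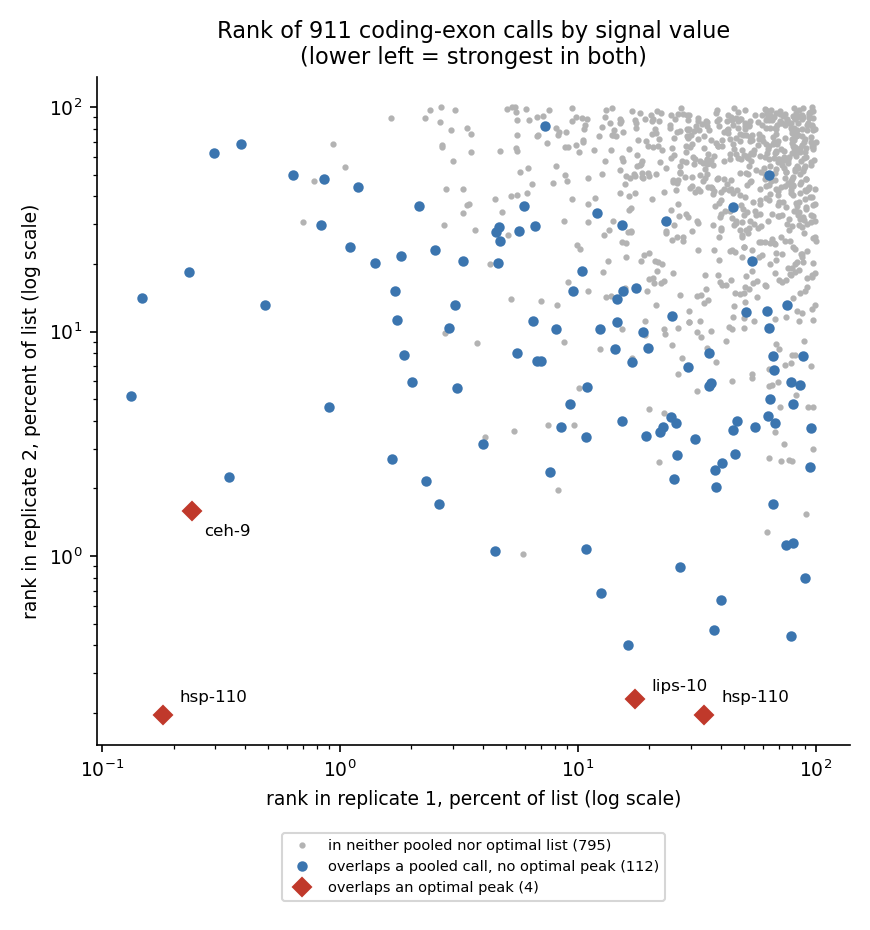
Rank of each of the 911 calls in replicate 1 (horizontal) and replicate 2 (vertical), as a percentage of the list on log scales, with lower values stronger. Diamonds overlap an optimal peak, blue points overlap a pooled call and grey points neither. The first hsp-110 call and ceh-9 sit near the lower left corner, while lips-10 and the second hsp-110 call are strong in replicate 2 only.

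Other strong calls lay in genes of unlike function. T07A9.14, at 387535 on chromosome IV, ranked 72 in replicate 1 and 322 in replicate 2. The guanine nucleotide exchange factor gene rei-1 ranked 547 and 242. Its target in membrane traffic, the small GTPase RAB-11, is encoded by rab-11.1, which ranked 486 and 308. These genes were set side by side after the ranks had been seen, and no link between their calls was tested. The replicate 2 summit of rab-11.1 lay in no coding exon.

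The mitochondrial inner membrane organizer gene immt-2 ranked 348 in replicate 1 and 386 in replicate 2. The bestrophin homolog best-18, of a family of chloride channels, had the highest signal value of all 911 calls in replicate 1, 25 at rank 28, but ranked 735 in replicate 2. The epoxide hydrolase gene ceeh-2 ranked 940 and 149, with summits 1 bp apart. The order of these calls differed between the lists.

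The cuticle collagen col-105 ranked 189 in replicate 1 and 658 in replicate 2. Y71F9AL.8 ranked 1237 and 145, the aspartyl aminopeptidase gene dnpp-1 ranked 844 and 452, and T24E12.11 ranked 857 and 483. The THO complex gene thoc-2, whose product couples transcription to mRNA export, ranked 424 and 849, sac-2 ranked 655 and 802, and the polyprotein allergen gene npa-1 ranked 1137 and 514. These genes complete the 15 with the smallest mean rank and share no family.

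Over all 911 calls, ranks were spread through both lists. The median signal value was 8.97 in replicate 1, with a range of 6.59 to 25, and 13 in replicate 2, with a range of 10.2 to 37.9. The median rank stood at 43.5% of the replicate 1 list (39.3 to 46.5) and 44.2% of the replicate 2 list (41.5 to 47.4), where 0% is the strongest. The other reproducible autosomal calls had medians of 43.3% and 41.2%. Coding-exon calls with no replicate 2 call had a median of 51.4% in replicate 1. The reproducible calls were somewhat stronger than those, and about as strong as reproducible calls elsewhere.

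Strength in replicate 1 and strength in replicate 2 were almost unrelated within the set. Across the 911 calls the Spearman correlation of signal values between replicates was 0.07, against 0.123 for other reproducible autosomal calls and 0.362 for the 191 near small RNA genes. The calls near 5′ ends gave 0.0783. These are descriptions across calls, which share libraries and, for 128 of the 911, their strongest replicate 2 call. The strongest 10% of both lists held 28 of the calls, or 3.07%, against 3.94% of other reproducible autosomal calls and 22.5% of those near small RNA genes. The weaker 50% of both lists held 183, or 20.1%, against 19.2%.

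The caller's own error estimates were weak for nearly all of them. The median of the deposited −log10 q-value was 0.0998 in replicate 1 and 0.0742 in replicate 2. A q-value under 0.1 was given to 3 of the calls in replicate 1 and to 5 in replicate 2. A q-value under 0.5 was given to 127, or 13.9%, in replicate 1 and to 84, or 9.22%, in replicate 2.

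The summits of the replicates were often far apart relative to the width of a call. The median call was 490 bp wide in replicate 1 and 470 bp wide in replicate 2, so calls that touch by 1 bp can have summits about 480 bp apart. The median distance was 142 bp (124 to 153), against 139 bp for other reproducible autosomal calls. Summits were within 50 bp of each other for 241 calls, or 26.5%, against 24.9%, and within 100 bp for 364, or 39.96%, against 40.8%. Near small RNA genes 48.2% were within 100 bp. Summit distances in coding exons were close to those of other reproducible calls.

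For 529 of the calls, or 58.1%, the replicate 2 summit lay in the same coding exon. It lay in another coding exon of the same gene for 137, in a coding exon of a different gene for 6 and in no coding exon for 239, or 26.2%. The assignment to an exon thus held in both replicates for somewhat over 50% of the calls.

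**Figure D2:**
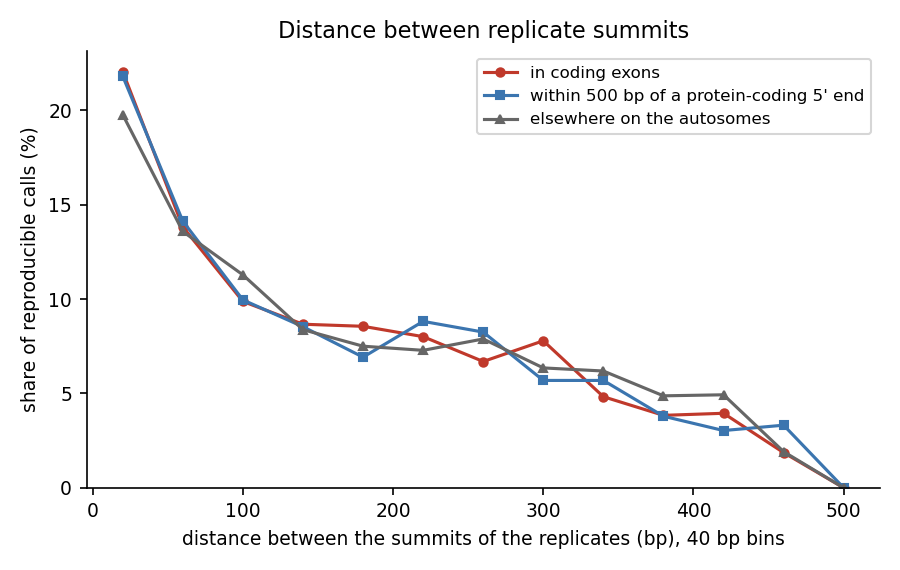
Share of reproducible autosomal calls by the distance between the summits of the replicates, in 40 bp bins. The curves for coding-exon calls, calls near 5′ ends and the remaining calls lie close together, each highest in the first bin and falling to 0 near 480 bp.

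The DNA under the calls was richer in G and C than coding sequence in general. In the window of 100 bp to either side of the summit the median GC content was 42.3% (41.8 to 42.8; mean 43.0%, SD 6.56, n = 911 calls), with a range of 22.9 to 71.6%. Coding-exon calls with no replicate 2 call had a median of 40.8% (40.3 to 41.3), and all 15068004 coding bases that met the conditions on position had 39.8%. The replicate 2 list gave the same order, with 42.3% (41.8 to 42.8) at coding-exon calls with a replicate 1 call and 41.3% (40.8 to 41.8) at those with none. The former come from the same overlap between the lists as the 911 calls, so their median is not a separate observation. GC content was not used to choose the calls. The windows also held noncoding bases, with a median coding share of 91.5% at the calls. That median was 85.1% at calls with no replicate 2 call and 81.6% at all coding bases that met the conditions. The part of this in the GC differences was not tested. Windows centred 1000 bp to either side had a median of 36.8%, against 36.3% beside calls with no replicate 2 call and 36.1% beside all such coding bases.

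The difference was clearest at the extremes. At least 50% G or C was found at 129 calls, or 14.2%, against 9.45% of calls with no replicate 2 call and 6.28% of the coding bases. Under 35% was found at 86 calls, or 9.44%, against 16.4% and 20.2%. The summit window was richer than its flanks at 722 calls, or 79.3%, against 74.6% of calls with no replicate 2 call.

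The density of calls climbed with each step of GC content. Below 35% G or C there were 28.2 reproducible calls per Mb of coding sequence, and from 35 to 40% there were 47.3. From 40 to 45% the density was 68.6, from 45 to 50% it was 88.7, from 50 to 55% it was 121, and above 55% it was 184 per Mb. The single lists rose too: calls of replicate 1 went through 177, 206, 269, 309, 375 and 532 per Mb in the same classes, and those of replicate 2 began at 113 and ended at 429. The share of replicate 1 calls that overlapped one of replicate 2 was 15.9% in the first class and 34.7% in the last. Where more calls are made in both lists, more overlap by position alone, and the part of this in the reproducible set was not tested.

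GC content was only weakly related to the signal value of either replicate within the set. Its Spearman correlation with the signal value was 0.0715 in replicate 1 and 0.0849 in replicate 2, across 911 calls. The 46 calls whose mean rank was within the strongest 10% had a median of 44.5% (41.3 to 47.8), against 42.3% (41.8 to 42.8) in the other 865, and these intervals overlap. Among the 106 calls in the strongest 25% of both lists the median GC content, given in the last section, lay above the interval of all 911 calls (41.8 to 42.8).

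At the last position of codons, G or C is often free to vary. Counted once per call, the genes hit had a median GC content at that position of 40.6% (39.9 to 41.2). Genes of calls with no replicate 2 call, counted in the same way, had 38.6%. Weighted over all coding bases that met the conditions, the median was 37.9%.

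**Figure D3:**
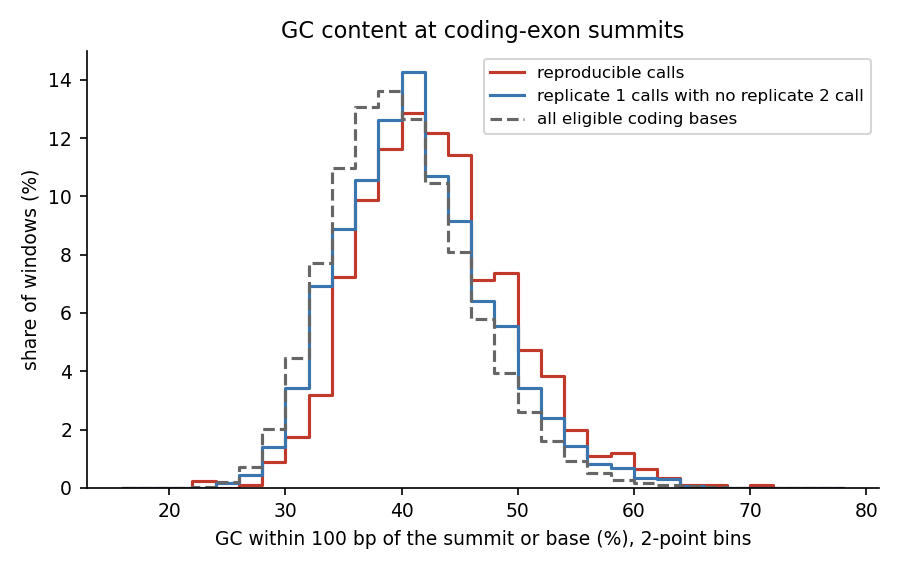
Share of windows by GC content of the window of 100 bp to either side of the summit, in bins of 2 percentage points. The curve for reproducible calls lies to the right of that for replicate 1 calls with no replicate 2 call, which lies to the right of that for all coding bases that met the conditions; the medians are 42.3%, 40.8% and 39.8%.

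Along the gene the calls followed the coding bases available. Their median position was 60.8% of the way from start to stop codon (58.5 to 62.9), against 59.99% for calls with no replicate 2 call and 59.4% for the coding bases. All of these lie beyond the middle because the bases near 5′ ends were left out. The last 20% of the coding sequence held 231 calls, or 25.4%, against 23.7% and 24.2%. Within 500 bp of a protein-coding 3′ end lay 226, or 24.8%, against 23.9% and 23.8%.

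Exon type followed the same rule, apart from exon length. Internal coding exons held 721 calls, or 79.1%, last coding exons 177, first coding exons 7 and single-exon coding sequences 6. Last exons made up 19.4%, against 18.0% of calls with no replicate 2 call and 17.3% of coding bases. Coding exons of 500 bp or more held 329 calls, or 36.1% (33 to 39.3), against 30.1% and 28.4%. The median exon under a call was 346 bp long, against 321 bp and 295 bp. The whole window was coding at 393 calls, or 43.1%, against 38.7% and 35.1%.

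The strongest calls had a larger share near the ends of genes, though the intervals overlap in each of the 3 comparisons. Of the 46 calls with a mean rank in the strongest 10%, 19 were in the last 20% of the coding sequence, or 41.3% (27 to 56.8), against 212 of the other 865, or 24.5% (21.7 to 27.5). The last coding exon held 16 of the 46, or 34.8% (21.4 to 50.2), against 18.6% (16.1 to 21.4). The median distance to a 3′ end was 596.5 bp (381 to 1166), against 1147 bp (1071 to 1240). This split by rank was chosen after the values had been seen. Among the 106 calls in the strongest 25% of both lists the median coding position was 61.9% (52.7 to 71.2), close to the 60.8% of the whole set. Single strong calls ranged from dnpp-1, at 99.0% of its coding sequence, and thoc-2, at 98.3%, to npa-1, at 39.3%, and immt-2, at 37.9%. Across all 911 calls the Spearman correlation of coding position with signal value was 0.0342 in replicate 1 and 0.0464 in replicate 2.

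**Figure D4:**
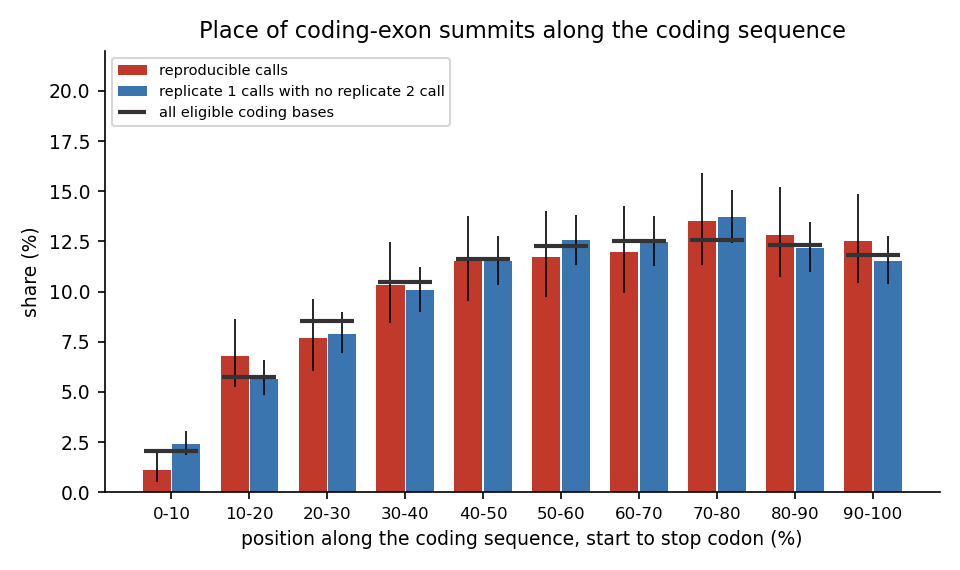
Share of summits in each 10% of the coding sequence, from start to stop codon, for reproducible calls and for replicate 1 calls with no replicate 2 call (bars with 95% exact binomial intervals), with horizontal marks for all coding bases that met the conditions. Both sets of bars follow the marks, and the first 10% is low because bases within 500 bp of a 5′ end were left out.

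The autosomes shared the calls nearly in proportion to their coding sequence. The density was 55.1 per Mb on chromosome I, 58.5 on II, 61.5 on III, 59.97 on IV and 65.7 on V, against 60.5 over all 5 (exact Poisson interval 56.6 to 64.5). Chromosome V held 251 calls, or 27.6%, against 27.4% of calls with no replicate 2 call and 25.4% of coding bases. The middle of the chromosomes, from 25 to 75% of their length, held 58.9%, against 59.2% and 59.3%. Sequence that recurs elsewhere in the genome was rare. More than 50% of the 32-base words of the window recurred at 6 calls, or 0.659%, against 0.577% of calls with no replicate 2 call. Those 6 lay in Y8A9A.2, F01G4.4, cest-35.2, cla-1, F14E5.2 and abu-4, of which abu-4 had 91.2% recurring words.

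Long genes were hit more often, and per base they were not. A call lay in 803 of 15263 genes with coding bases that met the conditions, or 5.26%. Of genes with 500 such bases or fewer, 1.86% had a call, and of the 61 genes with more than 8000, 29 had one, or 47.5%. Per Mb, the shortest class had 73.7 calls and the longest 52.6, with 52.8 to 63.0 in the classes between.

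Most genes with several calls had them close together. In 95 genes there were 2 calls or more, and in 55 of these all calls overlapped 1 shared replicate 2 call. The 911 calls touched 847 distinct strongest calls of replicate 2, and 134 of them overlapped another of the 911 in replicate 1 itself, so neighbouring calls are not separate observations. In 13 genes there were 3 calls, and 0 genes had more.

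The genes with 3 calls included unc-51, a kinase of autophagy and axon growth, vgln-1, which has RNA-binding K homology domains, the chromatin remodeller chd-7 and the histone methyltransferase gene set-16. The pharyngeal myosin gene myo-1, the ubiquitin ligase regulator cand-1, talin (tln-1) and the aminopeptidase gene pam-1 were next by rank, followed by sma-1, pole-1, mlt-7, hecd-1 and pod-2. In unc-51 the strongest call, at 19998976 on chromosome V, ranked 1794 in replicate 1 and 538 in replicate 2, with summits 5 bp apart and a GC content of 60.2%. In chd-7 the strongest, at 4688082 on chromosome I, ranked 1709 and 1464, while its other pair of calls shared a replicate 2 call of rank 3768. The genes with 3 calls range from kinases to muscle proteins.

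Gene families were compared through 33 lists defined by symbol, which together hold 171 of the 911 calls. Densities are calls per Mb of the coding bases of a list that met the conditions, with exact Poisson intervals, and stand beside the 60.5 per Mb of all genes. Translation factors had 6 calls in 5 genes at 188 per Mb (69.1 to 410). These were the elongation factor genes eef-2, ranked 6552 in replicate 1 and 5966 in replicate 2, and eef-1A.1, the initiation factor gene eif-3.C, ranked 1870 and 9421, and eif-2Bepsilon and eif-2Bdelta, which encode parts of the exchange factor for eIF2. None of the 6 was in the strongest 10% of both lists, which held 28 of the 911, or 3.07%. With 6 calls this cannot be told apart from that share. Relative to sequence of the same GC class the density was 2.51 times as high (0.921 to 5.46), an interval that includes 1. Counted as genes, there were 157 per Mb (50.9 to 366), against 53.3 per Mb for all genes, which lies within the interval.

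Cuticle collagens, which form the exoskeleton, had 12 calls in 12 of 147 genes at 125 per Mb (64.4 to 218). The median GC content under these calls was 54.2%, and coding bases of collagens that met the conditions had a median of 54.7%, against 39.8% for all genes. The strongest were col-105, with a signal value of 18.0 at rank 189 in replicate 1 and 19.5 at rank 658 in replicate 2, and col-91, with 12 at rank 2630 and 26.2 at rank 98. The col-91 summit also lies within ncr-2 on the annotation. At the overall density the list would hold 5.82 calls, and at the density of each GC class 13.1. Relative to all genes the density of collagens was 2.06 times as high, and relative to sequence of the same GC class it was 0.915 times as high (0.473 to 1.60). The GC classes include the sequence and calls of the collagens themselves. Comparisons with GC classes, and counts of genes or of distinct replicate 2 calls, were added after the data had been seen.

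Genes of the small RNA pathway, Argonautes and their partners in the germ line and in RNA interference, had 15 calls in 12 genes at 109 per Mb (61.1 to 180). The strongest were alg-4, ranked 3237 in replicate 1 and 3573 in replicate 2, and wago-4, ranked 9336 and 860. The list also held csr-1, rde-1, pgl-1, pgl-3, glh-1, alg-3, wago-10, ppw-2, znfx-1 and rsd-2. Relative to all genes the density was 1.81 times as high (1.01 to 2.98), and relative to sequence of the same GC class 1.73 times (0.968 to 2.85), an interval that includes 1. The 15 calls met 14 distinct replicate 2 calls, at 102 per Mb (55.7 to 171), against 56.2 per Mb for all genes. That lies within the interval, and so does the density of genes, 87.3 per Mb (45.1 to 153) against 53.3. None of the 15 overlapped a pooled call, against 116 of the 911, or 12.7%. With 15 calls this cannot be told apart from that share.

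Genes of chromatin and nucleosome remodelling had 19 calls in 13 genes at 91.6 per Mb (55.1 to 143), an interval that includes the overall density. The strongest were set-31, ranked 1173 in replicate 1 and 1146 in replicate 2, and chd-7. Muscle filament and giant muscle genes had 14 calls in 8 genes at 78.9 per Mb (43.1 to 132), led by unc-68, the ryanodine receptor, ranked 1068 and 3850, and myo-1, ranked 4581 and 2921. Kinesins and dyneins had 7 at 87.5 per Mb (35.2 to 180), led by dhc-3 and vab-8. The proteasome had 3 at 148 per Mb (30.5 to 433), in rpn-7 and rpt-1, and RNA polymerase subunits 3 at 99.4 per Mb (20.5 to 291), in ama-1 and rpc-1.

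Chemoreceptors, nuclear receptors and F-box genes had fewer calls per Mb than all genes. Chemoreceptors, the seven-pass receptors that worms use to sense their surroundings, had 24 calls in 23 of 1331 genes at 28.6 per Mb (18.3 to 42.6). They made up 2.63% of the 911 calls, against 4.45% of all coding-exon calls of replicate 1 that met the conditions, 3.87% of those of replicate 2 and 5.57% of the coding bases. Of the 164 chemoreceptor calls of replicate 1, 14.6% overlapped a replicate 2 call, against 24.7% over all genes. Over all genes that share was 15.9% in windows below 35% G or C and 23.0% in windows from 35 to 40%. Chemoreceptor coding windows had a median GC content of 35.8%, and the windows of the 24 calls 38.6%. The part of GC content in the lower overlap share was not tested. At the overall density the list would hold 50.7 calls, and at the density of each GC class 37.2, of which the 24 found are 0.644 times (0.413 to 0.959). The interval was not adjusted for the number of lists compared. The strongest were srj-23, ranked 1909 in replicate 1 and 2367 in replicate 2, and srw-17, ranked 5500 and 400.

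Nuclear receptors had 5 calls in 248 genes at 23.5 per Mb (7.63 to 54.9), led by nhr-76, ranked 3576 in replicate 1 and 1083 in replicate 2, and nhr-145. F-box genes, whose products choose substrates for ubiquitin ligases, had 4 in 308 genes at 19.4 per Mb (5.28 to 49.6), led by fbxa-13, ranked 1480 and 1055, and fbxa-136. Both lists had a median GC content of 37.3% over their coding windows. Relative to sequence of the same GC class the density was 0.467 times as high for nuclear receptors (0.152 to 1.09) and 0.402 times for F-box genes (0.11 to 1.03), and both intervals include 1. In the single lists nuclear receptors were not sparse. They made up 0.549% of the 911 calls, against 1.36% of coding-exon calls of replicate 1, 1.33% of those of replicate 2 and 1.41% of coding bases. F-box genes made up 0.439% of the 911 calls, against 0.814%, 0.848% and 1.37%.

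For the remaining 9 lists with at least 3 calls the interval of the density included that of all genes. Aminoacyl-tRNA synthetases, which charge tRNAs with amino acids, had 4 calls at 83.8 per Mb, led by cars-1, ranked 2606 in replicate 1 and 1190 in replicate 2, and wars-1. The chaperones outside Hsp70 and Hsp110 had 3 at 74.6 per Mb, led by enpl-1 and cct-3. Lipid enzymes had 4 at 71.9 per Mb, led by elo-9 and acs-2, and MATH and BTB genes 4 at 65.3 per Mb, led by btb-7 and bath-35. These lists lay a little above the overall density.

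ABC transporters, which pump small molecules across membranes, had 5 calls at 56.9 per Mb, led by pgp-9 and haf-1. Cytochrome P450, UDP-glucosyltransferase and glutathione transferase genes, which modify foreign compounds, had 9 at 55.6 per Mb, led by ugt-44 and cyp-32A1. Homeobox genes had 3 at 52.8 per Mb, led by ceh-9 and ceh-32. C-type lectins, many of them secreted, had 8 at 46.4 per Mb, led by clec-41 and clec-78, and matrix proteins 5 at 34.7 per Mb, led by epi-1 and fbn-1. These lay below it, within their counting error.

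Histone genes had 1 call, in the centromeric histone hcp-3, ranked 5652 in replicate 1 and 7231 in replicate 2. Cytosolic ribosomal proteins had 1, in rps-7, ranked 20532 and 427. In these families only 10 of 78 histone genes and 35 of 79 ribosomal protein genes had any coding base that met the conditions. Neuropeptide genes and the kinases of the kin series had 0 calls, with exact Poisson upper limits of 342 and 132 per Mb, and major sperm protein genes had no base that met the conditions.

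**Figure D5:**
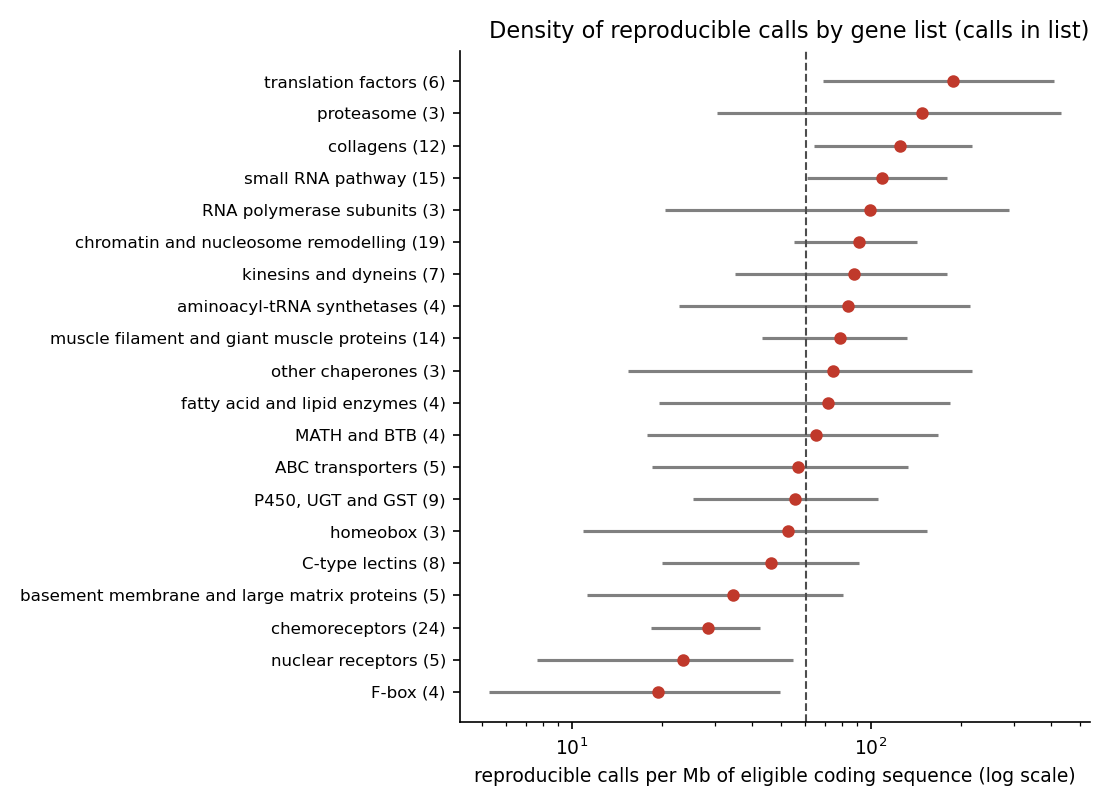
Reproducible coding-exon calls per Mb of coding sequence that met the conditions on position, for the 20 gene lists with at least 3 calls (log scale; bars are 95% exact Poisson intervals, numbers in parentheses are calls, the dashed line is the 60.5 per Mb of all genes). Translation factors, collagens and the small RNA pathway lie above the line, and chemoreceptors, nuclear receptors and F-box genes below it, with intervals that do not reach it. Relative to sequence of the same GC class, the interval stays clear of equality for chemoreceptors alone among these 6 lists. The bars count neighbouring calls separately. Counted as genes, the intervals of translation factors, the small RNA pathway and nuclear receptors include the 53.3 per Mb of all genes.

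Short sequence motifs were about as common under the calls as under coding-exon calls with no replicate 2 call. For 2 of them, CACGTG and CGCG, the interval of the share lay narrowly above the share of all coding windows. Both are rich in G and C, as were the windows under the calls, and no share matched for GC content was taken. Each motif was searched on both strands of the same window around the summit. The E-box core CANNTG, which basic helix-loop-helix factors recognise, was present at 68.8% of the calls (65.7 to 71.8), against 66.7% of calls with no replicate 2 call and 68.2% of all coding windows that met the conditions. Its form CACGTG, whose matches also count towards the core, was present at 6.59% (5.06 to 8.40), against 6.53% and 4.96%. The heat shock element pair GAANNTTC was present at 14.2%, against 14.4% and 14.4%.

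The GAGA repeat GAGAGA was present at 12% of the calls (9.93 to 14.3), against 10.9% of calls with no replicate 2 call and 10.2% of all coding windows that met the conditions. The GATA site TGATAA, bound by the intestinal GATA factors of worms, was present at 16.4%, against 17% and 18.2%. The TATA box letters TATAAA were present at 11%, against 12.2% and 13.1%. Over the other 3 motifs searched, which are made of G and C alone, the largest share was 18.7% of the calls (16.2 to 21.3), against 17.1% and 15.9%, for CGCG. A match is a description of these windows and not a binding site.

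The distance limit was a choice along a continuum. The calls nearest to it on the inside lay in tsfm-1, 502 bp from a 5′ end, and in vit-6, which encodes a yolk protein, 504 bp from one. On the outside, grl-19 lay 500 bp from a 5′ end, with ranks 2103 in replicate 1 and 9941 in replicate 2, and spch-1 lay 498 bp from one, with ranks 4423 and 2425.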

How the data were processed

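Immunoprecipitated chromatin of 2 biological replicates was analysed from peak lists on ce11 (WBcel235). Per the deposited notes, the replicate lists hold peaks and background for the irreproducible discovery rate procedure, each made against 1 control library shared by both, and the pooled and optimal lists derive from them. No source used here names the aligner, caller or thresholds. The deposited signal value ranks calls within a list, and the deposited −log10 q-value is the caller's. Read depth is unknown, so precision is that of counts of calls.

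Summits were placed on Ensembl release 115. Python 3.11.15, numpy 2.4.6, pandas 2.3.3 and scipy 1.17.1 gave overlaps of at least 1 bp, GC content, 32-base repeated words, and exact 95% binomial, Poisson and order-statistic intervals. The code passed 16 of 16 checks on made-up sequence. Product names came from RefSeq by WormBase identifier, matching all 911 calls. The calls and lists were chosen with earlier results of these data known. Named genes are the 15 calls of smallest mean rank, those at optimal peaks, the 8 genes with most calls, the 2 strongest of each list with at least 3, and the 2 nearest each side of the distance limit. Others (short sets, the col-91 sequence, recurring words, family members) were chosen after their values were seen. Alternatives changed the overlap, the distance limit, list strength, summits, GC window and replicate used. No sequence of chromosome I is shown. The ce10 lists were not used, since no annotation of that build was at hand.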

Additional observations from a re-analysis of the deposited data

How the results depend on the processing

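Of 270 alternative values, 227 stayed within the interval of the value reported (counts within 1.5 times) and 43 did not. None has a test, so none gains or loses a call. An overlap of at least 50% of the replicate 1 call moved the median rank in replicate 1 to 39.1%, the median summit distance to 87 bp and the share in genes with 2 calls or more to 16.1%. Requiring summits within 100 bp left 364 calls with a median rank of 38.7% in replicate 1, a summit distance of 34 bp, 2.2% in genes with 2 calls or more and 62.6% in chromosome centres. A distance limit of 250 bp moved the median coding position to 56.9%, and one of 1000 bp moved it to 63.3% and the share in long exons to 39.4%. With only the strongest 25% of each list, 106 calls remained, with a median GC content of 44.3%, 31.1% in long exons, median ranks of 10.6% and 10.3%, a correlation between replicates of 0.157 and a summit distance of 122 bp. In that set 2.83% overlapped the optimal set, 3.77% lay in genes with 2 calls or more, 1.89% had recurring words, 53.8% lay in chromosome centres, and chromosomes I to V held 14.2%, 16%, 25.5%, 21.7% and 22.6%. Taking summits from replicate 2 moved the median rank in replicate 1 to 37.5%. GC content was 43.6% with 50 bp to either side of the summit and 40.7% with 250 bp. With either replicate left out there were 2713 to 3684 calls, with a median GC content of 41.3 to 41.8%, 31.6 to 33.1% in long exons, a median rank of 49.6% in replicate 1 or 48.8% in replicate 2, 0.109 to 0.221% in the optimal set, 29.6 to 34.3% in genes with 2 calls or more, 1.33 to 1.36% in nuclear receptors and 3.87 to 4.45% in chemoreceptors. An alternative added after the data were seen set the density of collagens against all sequence of the same GC class, collagens included. The ratio fell to 0.915, from 2.06 over all genes. For the other 19 lists the ratio stayed within its interval, but the interval around the ratio to the GC class includes 1 for translation factors (0.921 to 5.46), the small RNA pathway (0.968 to 2.85), nuclear receptors (0.152 to 1.09) and F-box genes (0.11 to 1.03), and not for chemoreceptors (0.413 to 0.959). Counted as genes, against 53.3 per Mb, nuclear receptors (7.63 to 54.9 per Mb), translation factors (50.9 to 366) and the small RNA pathway (45.1 to 153) also reach the overall density. No paired analysis was possible because there is only 1 group. Leaving out a replicate gives no overlap, summit distance or correlation. Alternatives on ce10 were not run.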
